A study of Mus musculus with 32 samples.

Results

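Numbered zinc finger genes, those whose mouse symbol is Zfp and a number, were followed through every brain fraction of a translatome comparison in microglia, the resident macrophages of the brain. The table of exon counts held 24411 genes, of which 357 were numbered Zfp genes once Zfp36 was set aside, a gene of another zinc finger class whose protein binds mRNA. Of these, 198 had a mean of at least 10 counts per 1000000 gene counts of a library (CPM) in the 4 libraries of sorted Sall1-line microglia and are the members described here, and 159 lay under that minimum. The level in those 4 libraries therefore chose the members and is given only as a description. Just inside the minimum were Zfp951 at 10.3 CPM and Zfp934 at 10.2 CPM, and just outside were Zfp953 at 9.95 CPM and Zfp954 at 9.91 CPM.

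All mice were of C57BL/6 strain and were 4 to 6 weeks old when 5 mg of tamoxifen was given by gavage 4 times, on alternate days. There were 4 mice each of the Sall1-CreER:RPL22-HA and Cx3cr1-CreER:RPL22-HA genotypes, in which tamoxifen-activated Cre adds a haemagglutinin (HA) tag to the ribosomal protein RPL22 in the cells that express the driver gene. Sall1 encodes a transcription factor that marks microglia among brain macrophages, and Cx3cr1 encodes a chemokine receptor of microglia and other macrophages. Each brain gave 4 libraries of polyadenylated RNA: ribosomes precipitated from whole homogenate with anti-HA (HA), ribosomes precipitated with anti-HA from microglia sorted by flow cytometry (SortIP), RNA of the sorted microglia without precipitation (Sort), and homogenate precipitated with mouse IgG as control (IgG). The design thus holds 8 groups of 4 libraries. For the 8 sorted Cx3cr1 libraries the sample title and its antibody label name one fraction and the description and count column name the other, so results on them are given by title, with the value by description beside those whose call it changes. Each library held between 249881 and 4047465 gene counts, and the Cx3cr1 HA libraries averaged 405966 counts.

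C2H2 zinc finger proteins form a very large family of mammalian transcription factors. In each finger a pair of cysteines and a pair of histidines hold a zinc ion, and arrays of fingers read DNA triplet by triplet. Many members carry a KRAB domain ahead of the fingers, which binds the corepressor TRIM28 (KAP1) and through it brings histone methylation to target sites, transposable elements among them. KRAB zinc finger genes lie in large clusters of tandem duplicates, and others of the family are single, older genes that work as activators, RNA-binding proteins or ubiquitin ligases.

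The repeat unit can be read in the coding sequence. The first finger that matched the pattern of 2 cysteines and 2 histidines with 12 residues between the pairs is shown here for 6 members on which the results below turn: 3 that were nearly absent from homogenate HA libraries (Zfp445, Zfp62 and Zfp871) and 3 that were recovered there in the Cx3cr1 line (Zfp710, Zfp691 and Zfp90). Each run of 63 bases comes from the longest GENCODE M21 transcript (GRCm38), 5′ to 3′, and capitals mark the codons of the zinc-binding cysteines and histidines.
Zfp445: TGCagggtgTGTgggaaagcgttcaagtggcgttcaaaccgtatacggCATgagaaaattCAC
Zfp62: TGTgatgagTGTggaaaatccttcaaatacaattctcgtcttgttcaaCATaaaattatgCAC
Zfp871: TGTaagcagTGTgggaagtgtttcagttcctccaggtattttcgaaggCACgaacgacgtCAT
Zfp710: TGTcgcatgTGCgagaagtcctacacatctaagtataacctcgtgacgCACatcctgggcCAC
Zfp691: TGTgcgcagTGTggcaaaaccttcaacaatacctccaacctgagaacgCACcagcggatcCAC
Zfp90: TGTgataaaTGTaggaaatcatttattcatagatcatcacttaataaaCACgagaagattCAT
The first finger of Zfp691 matched the next finger of the same gene at 68.3% of bases and that of Zfp62 at 49.2%, so the repeats within 1 transcript had diverged outside the marked codons.

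The features below were not used by the level rule, but the choice by symbol picks zinc finger genes, so the presence of fingers is a description. Translation of the members' GENCODE M21 coding sequences gave a median of 10 C2H2 fingers, from 0 in 4 members up to 36. Of other genes, 1.96% had at least 1 finger. A text pattern for the KRAB A box was found in 97 members and not in 101. The pattern is imperfect: it missed Zfp445, which is known to carry a KRAB domain, and matched Zfp148, which is not. Members with the pattern had a median of 12 fingers and those without it 7. Transcripts were long, with a median of 3627 bases over members against 2107 bases over all genes of the table. Chromosome 7 held 48 members, 24.2% of them, against 9.02% of all table genes, and chromosome 17 held 25. Another numbered Zfp gene lay within 200 kb of 117 members, including 79 of the 97 with the KRAB pattern and 38 of the 101 without. The 159 genes under the minimum resembled the members here: 60.6% of those with a translated sequence had the KRAB pattern, and their median was 11 fingers.

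Because tandem copies can share reads, stretches of 50 bases were compared between each member's longest transcript and those of all other genes. In 91 members no such stretch recurred elsewhere, and in 169 members at most 10% did. More than 50% recurred in 4 members, Zfp935, Zfp991, Zfp984 and Zfp58, and for these and for the 25 further members over 10% the counts are uncertain. Among members named below, Zfp524 had 46.0% of its stretches in the transcript of Gm44973, Zfp932 had 45.2%, Zfp384 had 13.1% and Zfp706 had 7.83%.

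RefSeq promoters (GRCm38.p6, 250 bases before to 50 bases after the transcription start) were given for 165 members. Their median was 16 CG dinucleotides and 56.7% G and C, against 7 CG dinucleotides and 52.7% over all promoters. Of 10 motifs searched on both strands, CCGGAAGT occurred in 12.1% of members with a promoter against 4.31% of all genes, CGCATGCG in 7.88% against 2.07%, the letters ACTACAA, any base and TCC in 5.45% against 1.17%, AAGATGGCG in 3.64% against 1.64%, TGACGTCA in 3.64% against 2.03% and TCTCGCGA in 2.42% against 1.13%. The short motif CCAAT occurred in 53.3% against 41.1%, GGGGCGGGG in 14.5% against 12.9%, CACGTG in 7.88% against 8.09% and TATAAA in 6.67% against 15.7%. The promoters of 2 members recovered in Cx3cr1 HA libraries and of 2 nearly absent from them are shown at their most upstream RefSeq start, with matches to any of the 10 motifs in capitals on the gene's strand (ATTGG is CCAAT read on the other strand).
Zfp691, chr4:119174146-119174445, minus strand: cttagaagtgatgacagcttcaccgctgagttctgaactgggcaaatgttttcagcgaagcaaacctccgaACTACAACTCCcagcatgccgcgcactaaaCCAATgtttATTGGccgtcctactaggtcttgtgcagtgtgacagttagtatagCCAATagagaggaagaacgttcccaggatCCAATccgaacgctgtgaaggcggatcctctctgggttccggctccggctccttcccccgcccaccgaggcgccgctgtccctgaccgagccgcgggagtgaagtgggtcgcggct
Zfp710, chr7:80024564-80024863, plus strand: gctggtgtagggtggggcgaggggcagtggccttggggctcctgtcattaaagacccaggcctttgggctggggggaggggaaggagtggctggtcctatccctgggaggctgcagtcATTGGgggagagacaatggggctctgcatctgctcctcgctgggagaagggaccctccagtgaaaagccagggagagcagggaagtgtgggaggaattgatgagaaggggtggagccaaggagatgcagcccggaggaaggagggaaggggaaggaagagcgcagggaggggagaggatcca
Zfp62, chr11:49203042-49203341, plus strand: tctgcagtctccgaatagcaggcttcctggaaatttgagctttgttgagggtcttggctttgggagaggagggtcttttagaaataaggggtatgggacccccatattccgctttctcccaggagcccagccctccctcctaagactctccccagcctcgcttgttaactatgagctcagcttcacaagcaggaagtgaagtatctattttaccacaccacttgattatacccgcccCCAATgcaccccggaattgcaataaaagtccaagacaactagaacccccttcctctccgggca
Zfp445, chr9:122865957-122866256, minus strand: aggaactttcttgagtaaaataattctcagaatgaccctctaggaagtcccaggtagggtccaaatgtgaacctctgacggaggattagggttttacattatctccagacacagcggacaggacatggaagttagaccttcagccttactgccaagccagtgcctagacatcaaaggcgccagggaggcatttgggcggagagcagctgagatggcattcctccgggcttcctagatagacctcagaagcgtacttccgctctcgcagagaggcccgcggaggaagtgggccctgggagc
The Zfp691 promoter held 21 CG dinucleotides, matches to CCAAT on both strands and a match to the motif that begins ACTACAA. The promoters of Zfp710, Zfp62 and Zfp445 held 4, 6 and 10 CG dinucleotides, while the downstream RefSeq start of Zfp62 (chr11:49203481-49203780) had 32 and that of Zfp691 16, and the Zfp445 window held none of the 10 motifs. A motif match is a description of the letters only. The comparison set was every gene with a promoter, whatever its level in microglia, and no set at the same level minimum was searched. The 10 motifs were also kept after other words had been looked at. These percentages are therefore descriptions and not a trait of the members.

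Marker genes describe the cell content of each fraction. The 20 listed microglial genes together took 8.64% to 9.33% of gene counts in Sall1 SortIP and 6.61% to 7.42% in Sall1 Sort, and 6.61% to 7.44% in titled Cx3cr1 SortIP and 8.71% to 9.62% in titled Cx3cr1 Sort, with none of them at 0 in any of these groups. They thus took the larger share in SortIP of the Sall1 line and in titled Sort of the Cx3cr1 line. In homogenate they took 0.562% to 0.678% in Sall1 HA and 0.0955% to 0.127% in Sall1 IgG, and 7.89% to 9.29% in Cx3cr1 HA and 0.120% to 0.154% in Cx3cr1 IgG. Astrocyte genes took 1.42% to 1.61% in Sall1 HA, 0.494% to 0.559% in Sall1 IgG, 0.106% to 0.132% in Cx3cr1 HA and 0.435% to 0.595% in Cx3cr1 IgG, with 0 of 15 genes at 0 in each. The 12 listed oligodendrocyte genes took 1.02% to 1.25% in Sall1 HA and 0.443% to 0.567% in Sall1 IgG, and the 9 listed precursor genes 0.178% to 0.249% in Sall1 HA and 0.0365% to 0.0484% in Sall1 IgG. The microglia label therefore fitted the sorted groups and Cx3cr1 HA, whereas in Sall1 HA the listed astrocyte genes and the listed oligodendrocyte genes each took a larger share than the listed microglial genes. In homogenate fractions a gene expressed in fewer cells and a gene with less RNA per cell cannot be told apart.

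Together the members took a smaller share of gene counts in HA libraries than in any other fraction. They held 0.327% ± 0.00737 in Sall1 HA, 0.591% ± 0.0285 in Sall1 SortIP, 0.774% ± 0.0169 in Sall1 Sort and 0.445% ± 0.0116 in Sall1 IgG (SD, n = 4 each). In the Cx3cr1 line they held 0.370% ± 0.0173 in HA, 0.794% ± 0.0652 in the libraries titled SortIP, 0.635% ± 0.0283 in those titled Sort and 0.453% ± 0.0320 in IgG (SD, n = 4 each). In each line the 4 HA libraries lay below all 12 others, and the 4 IgG libraries lay below all 8 sorted ones. With TMM scaling, which corrects for differences in RNA composition, HA and IgG overlapped: 0.388% ± 0.0127 in Sall1 HA and 0.412% ± 0.0152 in Sall1 IgG, and 0.392% ± 0.0223 in Cx3cr1 HA and 0.439% ± 0.0187 in Cx3cr1 IgG (SD, n = 4 each). By description the values of Cx3cr1 SortIP and Sort are exchanged. The level in Sall1 Sort is fixed by the rule, and a choice by high level in sorted cells favours a lower share elsewhere. By KRAB pattern the gap between fractions differed in size: members with the pattern held 0.0387% ± 0.00346 in Sall1 HA and 0.111% ± 0.0196 in Sall1 IgG, and 0.0521% ± 0.00245 in Cx3cr1 HA and 0.116% ± 0.0261 in Cx3cr1 IgG (SD, n = 4 each). Members without it held 0.288% ± 0.00930 in Sall1 HA and 0.334% ± 0.0146 in Sall1 IgG, and 0.318% ± 0.0153 in Cx3cr1 HA and 0.337% ± 0.0183 in Cx3cr1 IgG (SD, n = 4 each).

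**Figure D1:**
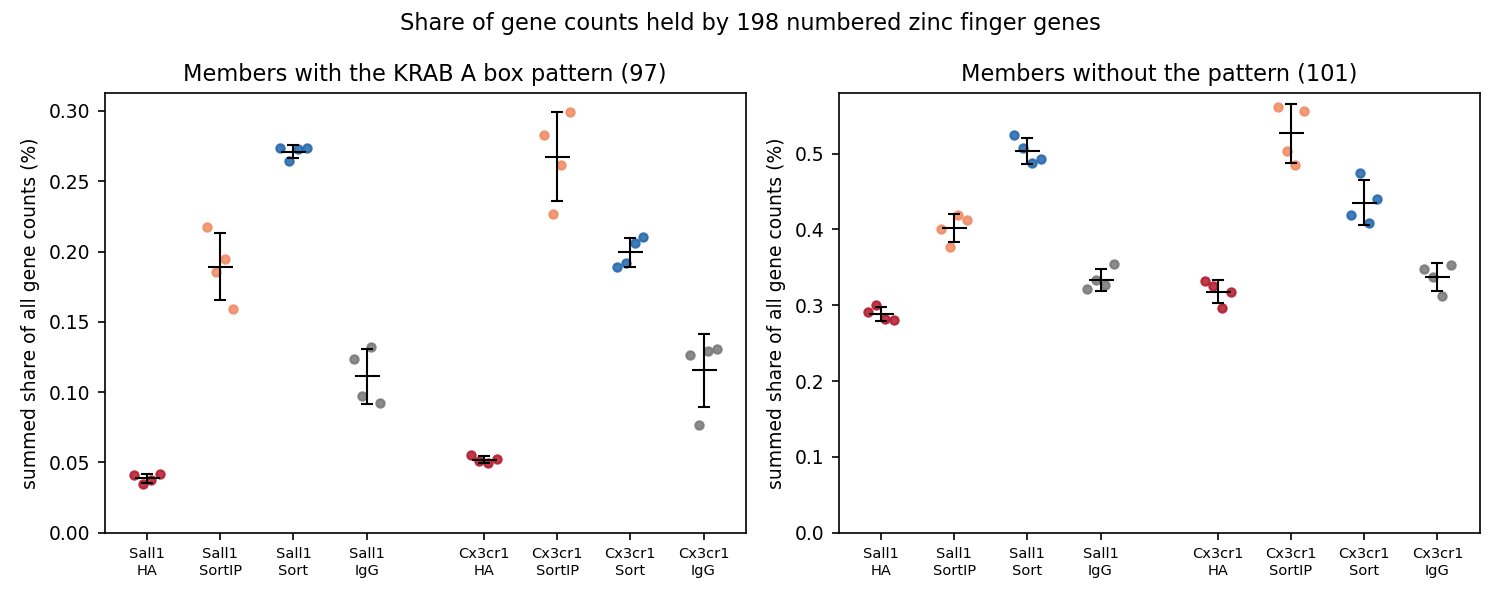
Summed share of gene counts (%, y axis) held by members with the KRAB A box pattern (left, 97 genes) and without it (right, 101 genes) in each of 8 groups (x axis). Points are the 4 libraries of a group, and the black marks are mean ± SD. Members with the pattern averaged 0.0387% in Sall1 HA and 0.0521% in Cx3cr1 HA, below every other group.

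The 6 members with the highest level in sorted Sall1 microglia were, in order, Zfp706, Zfp710, Zfp91, Zfp90, Zfp62 and Zfp445, with 296 CPM for Zfp706 and 136 CPM for Zfp445. Per kb of transcript the order was Zfp706 at 67.1 CPM per kb, Zfp90 at 61.7, Zfp771 at 58.7, Zfp207 at 51.9, Zfp414 at 50.8 and Zfp710 at 47.8 CPM per kb. Over all 198 members the median of group means was 24.3 CPM in Sall1 Sort, 24.4 CPM in titled Cx3cr1 SortIP, 21.3 CPM in titled Cx3cr1 Sort and 19.6 CPM in Sall1 SortIP. In HA the median was 5.78 CPM for the Cx3cr1 line and 4.17 CPM for the Sall1 line, and in IgG 12.1 CPM for Cx3cr1 and 12.2 CPM for Sall1. Sall1 HA was the lowest of the 8 groups for 95 members and Cx3cr1 HA for 45.

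Zfp706 (mm9 chr15:36926782-36937157), which acts in the exit of embryonic stem cells from self-renewal and codes for 1 finger, stood at 216, 147, 213 and 150.1 CPM in Cx3cr1 HA libraries, against 164, 102, 200.1 and 196 CPM in Cx3cr1 IgG. In the Sall1 line it was 178, 202, 119 and 197 CPM in HA and 167, 199, 180.4 and 211 CPM in IgG. HA and IgG libraries overlapped in both lines. Sall1 HA averaged 174 ± 37.8 CPM and Sall1 IgG 189 ± 19.6 CPM (SD, n = 4 each) before the TMM scaling that the fit applies. The fitted log2 fold changes, positive in both lines, were 0.55 ± 0.23 in Cx3cr1 (SE, edgeR adjusted p = 0.051) and 0.28 ± 0.17 in Sall1 (SE, edgeR adjusted p = 0.14).

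Precipitation with anti-HA against IgG asked which members were recovered on tagged ribosomes. In the Cx3cr1 line 111 members passed the low-count filter, of which 28 were higher in HA (25.2%, against 28.6% of all 10021 tested genes) and 25 were lower (22.5%, against 36% of all tested genes). The other 58 did not pass the test, and 87 members were not tested. The median log2 fold change was 0.18 over tested members and -0.28 over all tested genes. Over the 7536 tested genes that met the same level minimum, 37.2% were higher, 23.3% were lower and the median was 0.20, so the members' share called higher lay below that of all genes over the minimum. The 25 calls of lower level rested partly on the IgG libraries of mice 1, 3 and 4: without one of them at a time the count was 13, 16 and 13. Without scaling beyond library size 15 were higher and 38 lower, against 21.2% higher and 46.9% lower of all tested genes. That setting moved the median over all tested genes to -0.68. With the mouse as a block and a length adjustment 41 were higher and 17 lower, against 29.8% higher and 32.1% lower of all tested genes. The median over all tested genes was then -0.12, and the members' share called higher lay above that of all tested genes.

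Zfp710 (mm9 chr7:87171114-87237637) and Zfp691 (mm9 chr4:118842123-118846461) had the smallest adjusted p of the members higher in Cx3cr1 HA. Zfp710 stood at 207, 251, 165 and 258 CPM in Cx3cr1 HA against 16.8, 27.1, 15.7 and 22.1 CPM in Cx3cr1 IgG. Zfp691 stood at 103, 70.4, 68.8 and 62.8 CPM in Cx3cr1 HA against 8.63, 7.29, 7.18 and 4.77 CPM in Cx3cr1 IgG. In both genes every HA library lay above every IgG library, with log2 fold changes of 3.81 ± 0.24 (SE, edgeR adjusted p = 1.8e-09) for Zfp710 and 3.86 ± 0.29 (SE, edgeR adjusted p = 1.4e-08) for Zfp691. Zfp90, a KRAB zinc finger gene, followed with 60.9, 79.5, 57.4 and 80.3 CPM in Cx3cr1 HA against 19.1, 14.6, 14.8 and 10.4 CPM in Cx3cr1 IgG, a log2 fold change of 2.62 ± 0.27 (SE, edgeR adjusted p = 5.5e-07). In the same comparison 19 of 20 microglial markers were higher in Cx3cr1 HA than in IgG, with a median log2 fold change of 5.48. The part of microglia in the result for these members was not tested.

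Zfp651 (the mouse ortholog of human ZBTB47) and Zfp445 had the smallest adjusted p of the members lower in Cx3cr1 HA. Zfp651 stood at 94.0, 70.4, 45.9 and 76.8 CPM in Cx3cr1 HA against 219, 284, 176 and 229 CPM in Cx3cr1 IgG, a log2 fold change of -1.25 ± 0.24 (SE, edgeR adjusted p = 2.7e-04), or -0.27 (adjusted p = 0.31, edgeR) with the mouse as a block and a length adjustment. Zfp445, which maintains methylation at imprinted genes with Zfp57, stood at 3.48, 3.06, 2.29 and 0 CPM in Cx3cr1 HA against 93.6, 17.8, 121 and 100.3 CPM in Cx3cr1 IgG. Its log2 fold change was -4.64 ± 0.84 (SE, edgeR adjusted p = 4.9e-04), and the IgG library of mouse 2, at 17.8 CPM, lay far under the other 3. All 15 neuronal marker genes were also lower in Cx3cr1 HA than in IgG, with a median log2 fold change of -2.86, and their part in the lower members was not tested.

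The Sall1 line gave 145 tested members, with 33 higher in HA (22.8%, against 35.2% of all 11545 tested genes) and 61 lower (42.1%, against 36.1% of all tested genes). The median log2 fold change was -0.39 over members and -0.03 over all tested genes. Without scaling beyond library size 16 were higher and 78 lower, against 25.0% higher and 46.9% lower of all tested genes. The median over all tested genes was then -0.44. With the mouse as a block and a length adjustment the lean of the members turned: 43 were higher (against 34.0% of all tested genes) and 41 lower (against 31.2% of all tested genes), the median was 0.10 over members, and 62 of the 94 calls kept their direction. Over the 7950 tested genes at the same level minimum 37.5% were higher and 32.4% lower. Beside the members, 12 of 15 astrocyte, 10 of 12 oligodendrocyte, 6 of 9 oligodendrocyte precursor and 17 of 20 microglial genes were higher and 14 of 15 neuronal genes lower in Sall1 HA, and their part was not tested. Zfp524, whose human counterpart binds telomeric DNA, stood at 46.5, 35.3, 35.9 and 42.0 CPM in the Sall1 HA libraries against 11.7, 11.3, 14.2 and 17.5 CPM in Sall1 IgG. Zfp768 stood at 66.2, 64.4, 77.6 and 59.1 CPM in the Sall1 HA libraries against 32.1, 24.9, 21.3 and 39.8 CPM in Sall1 IgG. In both genes the groups did not overlap, and log2 fold changes were 1.94 ± 0.22 (SE, edgeR adjusted p = 4.3e-07) for Zfp524 and 1.53 ± 0.20 (SE, edgeR adjusted p = 2.2e-06) for Zfp768. Zfp445 stood at 1.23, 2.31, 1.06 and 1.71 CPM in the Sall1 HA libraries against 90.7, 50.4, 85.2 and 41.0 CPM in Sall1 IgG. Zfp871 (mm9 chr17:32902442-32925232), with 15 fingers and the KRAB pattern, stood at 0.411, 1.32, 1.58 and 1.29 CPM in the Sall1 HA libraries against 62.9, 70.8, 93.7 and 30.1 CPM in Sall1 IgG. Log2 fold changes were -4.90 ± 0.38 (SE, edgeR adjusted p = 4.6e-09) for Zfp445 and -5.33 ± 0.45 (SE, edgeR adjusted p = 1.6e-08) for Zfp871.

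In both lines the members with the KRAB pattern had a lower median in HA against IgG than those without it. In Sall1, 37 of 53 tested members with the pattern were lower (69.8%, against 36.1% of all tested genes) and 3 were higher, with a median log2 fold change of -1.16, against 24 lower and 30 higher of 92 without it and a median of 0.16. In Cx3cr1, 12 of 30 with the pattern were lower (40.0%, near the 36% of all tested genes) and 3 were higher (10.0%, against 28.6%), with a median of -0.79, against 13 lower and 25 higher of 81 without it and a median of 0.48. These splits are descriptions, since the difference between them was not tested. A member low in HA could pass the low-count filter through the IgG libraries alone, which favours calls of lower level. The 61 members lower in Sall1 HA and the 25 lower in Cx3cr1 HA, which come from different mice, shared 22 genes, 36.1% of the Sall1 calls and 88.0% of the Cx3cr1 calls. The 33 and 28 higher members shared 20, 60.6% of the Sall1 calls and 71.4% of the Cx3cr1 calls. The Sall1 percentages are of all its calls, although only 109 members were tested in both lines. The overlap of calls over all tested genes was not computed, so these percentages are descriptions and not a trait of the members. Zfp282 was the only member called in opposite directions, at -0.71 in Sall1 and 0.81 in Cx3cr1 (log2 fold change, HA over IgG).

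**Figure D2:**
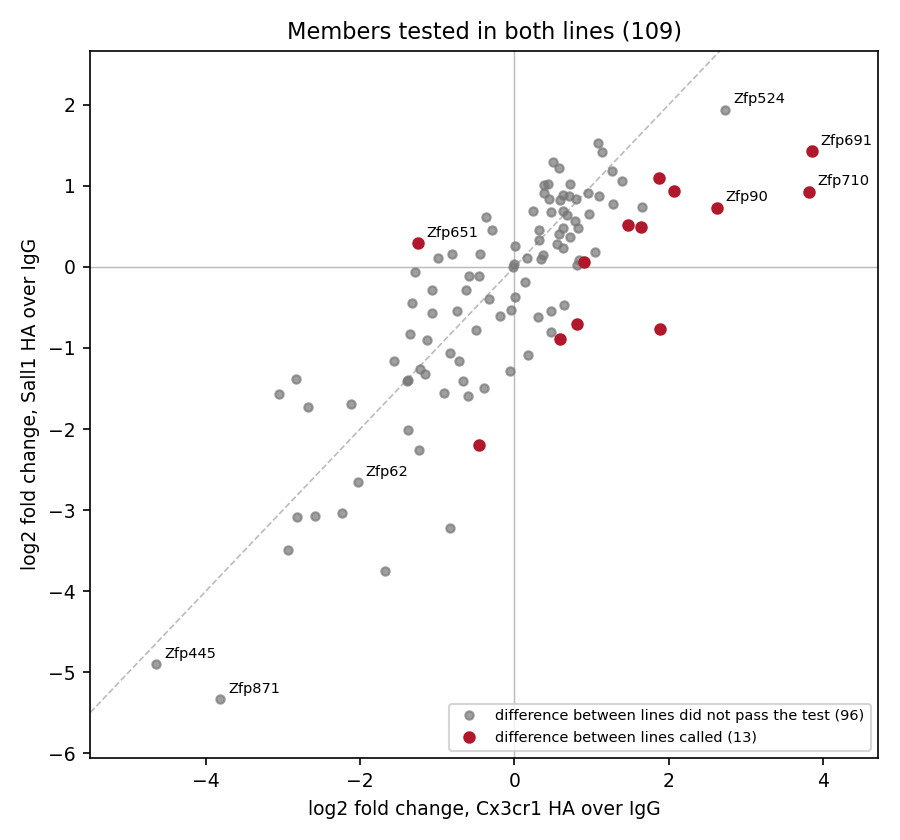
Log2 fold change of HA over IgG in the Sall1 line (y axis) against that in the Cx3cr1 line (x axis) for the 109 members tested in both. Red points are the 13 of these whose fold change differed between lines by the interaction test. Zfp445, Zfp871 and Zfp62 lie at the lower left in both lines, and Zfp710, Zfp691 and Zfp90 lie to the right of the dashed line of equal fold change.

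The interaction term tested whether HA enrichment differed between lines (Sall1 minus Cx3cr1). Of 170 tested members, 15 were lower (8.82%, against 13.7% of all 12308 tested genes) and 2 were higher (1.18%, against 18.5% of all tested genes). Among tested genes at the same level minimum 19.4% were lower and 11.4% higher. The 2 higher calls became 1 without any one of 8 libraries (Cx3cr1 HA of mouse 1 or 2, Cx3cr1 IgG of mouse 1, Sall1 HA of mouse 17, 7 or 9, Sall1 IgG of mouse 21 or 9) and 4 without Cx3cr1 IgG of mouse 2. Zfp710 and Zfp691 led the lower ones. In Sall1 HA Zfp710 stood at 28.4, 33.7, 30.6 and 28.7 CPM, against 19.4, 23.2, 18.5 and 22.7 CPM in Sall1 IgG. In Sall1 HA Zfp691 stood at 13.2, 11.6, 11.1 and 9.0 CPM, against 5.69, 6.80, 1.42 and 5.93 CPM in Sall1 IgG. Both were thus still above IgG in Sall1, but less so than in Cx3cr1, with differences of -2.92 ± 0.30 for Zfp710 (log2, SE, edgeR adjusted p = 3.7e-08) and -2.48 ± 0.43 for Zfp691 (log2, SE, edgeR adjusted p = 6.4e-05). Zfp651 went the other way, at 184, 201, 211 and 171 CPM in the Sall1 HA libraries against 231, 206, 180.4 and 208 CPM in Sall1 IgG, with a difference of 1.50 ± 0.28 (log2, SE, edgeR adjusted p = 2.0e-04). Zfp790, the other member called higher, had 0 counts in all 4 Cx3cr1 HA libraries and 3.70, 1.98, 3.17 and 4.71 CPM in Sall1 HA, so its fitted difference depends on the prior count. Its call was lost in 11 of 16 fits that left out 1 library, with adjusted p from 0.020 to 0.11 (edgeR), and also with median-ratio size factors (edgeR adjusted p = 0.054) and with DESeq2 (adjusted p = 0.090).

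Compared directly, Sall1 HA and Cx3cr1 HA were tested for 82 members, of which 17 were lower in Sall1 HA (20.7%, against 25.7% of all 9092 tested genes) and 3 were higher (3.66%, against 27.2% of all tested genes). Without scaling beyond library size 13 were lower and 6 higher, against 21.3% lower and 33.5% higher of all tested genes. Among tested genes at the same level minimum, with TMM scaling, 32.9% were lower and 17.5% higher. Zfp710 was lower by a log2 fold change of -3.03 ± 0.20 (SE, edgeR adjusted p = 1.1e-12) and Zfp691 by -2.98 ± 0.25 (SE, edgeR adjusted p = 1.3e-10). Zfp651 was higher by 1.22 ± 0.21 (SE, edgeR adjusted p = 1.9e-05). Zfp664 stood at 65.0, 47.6, 49.1 and 47.6 CPM in the Sall1 HA libraries against 24.4, 30.6, 9.18 and 34.9 CPM in Cx3cr1 HA, without overlap, a log2 fold change of 0.95 ± 0.29 (SE, edgeR adjusted p = 0.0076). In the same comparison all 20 microglial genes were lower and all 15 astrocyte genes were higher in Sall1 HA, with median log2 fold changes of -3.95 and 2.98, and the part of these cells in the members' differences was not tested.

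The members also differed between ribosomes precipitated from homogenate and from sorted cells of the Cx3cr1 line. Of 132 tested members, 86 were lower in HA than in titled SortIP (65.2%, against 37.5% of all 8198 tested genes) and 16 were higher (12.1%, against 32.6% of all tested genes). The median log2 fold change was -1.56 over members and -0.12 over all tested genes. Among the 7605 tested genes that met the same level minimum, 40.4% were lower, 27.5% were higher and the median was -0.27. With SortIP and Sort taken by description, 61 of 111 tested members were lower (against 36.2% of all genes) and 17 higher (against 31.9% of all genes), with a median of -0.99 over members. A member low in HA could pass the low-count filter through the SortIP libraries alone, which favours calls of lower level. The result also depended on how the genes were chosen. Numbered Zfp genes picked by at least 10 CPM in Cx3cr1 HA itself numbered 83, of which 70 were tested. Of these, 25 were lower and 17 higher (against 37.5% and 32.6% of all tested genes), with a median of -0.22. Numbered Zfp genes picked by the mean over all libraries were 170, of which 132 were tested, 85 lower and 17 higher, with a median of -1.54. Both choices were made after the data had been seen.

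Zfp445 stood at 3.48, 3.06, 2.29 and 0 CPM in Cx3cr1 HA against 174, 126, 121 and 153 CPM in titled SortIP, a log2 fold change of -5.57 ± 0.40 (SE, edgeR adjusted p = 1.3e-10). Zfp62 (mm9 chr11:49017002-49032318), which codes for 25 fingers, stood at 5.22, 0, 4.59 and 3.49 CPM in Cx3cr1 HA against 189, 107, 134 and 138 CPM in titled SortIP, a log2 fold change of -5.00 ± 0.40 (SE, edgeR adjusted p = 7.0e-10). Over the 4 HA libraries these levels rest on 4 counts of Zfp445 and 6 counts of Zfp62. Zfp91, a ubiquitin ligase of the noncanonical NF-κB pathway, fell to 69.6, 39.8, 78.0 and 62.8 CPM in Cx3cr1 HA against 241, 111, 126 and 221 CPM in titled SortIP, a log2 fold change of -1.24 ± 0.28 (SE, edgeR adjusted p = 7.1e-04). By description that change was -0.35 and did not pass the test, whereas Zfp445 at -4.80 and Zfp62 at -4.74 passed it. No Cx3cr1 HA library held a count of 9 members, among them Zfp52, which was at least 16.1-fold lower there than in titled SortIP (taking 3 counts over the 4 HA libraries as the floor), Zfp40 (at least 10.2-fold) and Zfp760 (at least 9.53-fold). Against the libraries titled Sort, which the description calls SortIP, the bound was 12.2-fold for Zfp52, 5.37-fold for Zfp40 and 4.33-fold for Zfp760.

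Members higher in homogenate HA than in titled SortIP were led by Zfp651 and Zfp771. Zfp651 stood at 94.0, 70.4, 45.9 and 76.8 CPM in Cx3cr1 HA against 14.9, 21.4, 15.5 and 10.2 CPM in titled SortIP, a log2 fold change of 2.49 ± 0.28 (SE, edgeR adjusted p = 1.1e-07). Zfp771 stood at 237, 248, 147 and 119 CPM in Cx3cr1 HA against 64.5, 58.9, 89.0 and 65.0 CPM in titled SortIP, a log2 fold change of 1.68 ± 0.24 (SE, edgeR adjusted p = 2.6e-06). The groups did not overlap in either gene. Neuronal genes were higher in HA as well, 13 of 13 tested, and summed to 0.148% ± 0.0380 of counts in Cx3cr1 HA and 0.0143% ± 0.00650 in titled SortIP (SD, n = 4 each), and their part in the higher members was not tested.

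Transcript length moved with these fold changes. Across all 8198 tested genes the log2 fold change of Cx3cr1 HA over SortIP had a Spearman correlation of -0.28 with length, and across the 132 members one of -0.31, both across genes, which are not independent. Median log2 fold changes under 2500 bases were -0.39 over members and 0.17 over tested genes at the same level minimum, from 2500 to under 5000 bases -1.70 and -0.46, and from 5000 bases -1.86 and -1.13. By description they were -0.29 and 0.16, -0.99 and -0.42, and -1.60 and -0.86 in the same order. With a length adjustment and the mouse as a block, 73 members were lower and 21 higher than in SortIP. Of all tested genes, 34.0% were lower and 34.3% higher in that fit. The part of length in the result was not otherwise tested. Of 50 tested members with the KRAB pattern, 45 were lower and 2 higher with a median of -2.72, whereas of 82 without it 41 were lower and 14 higher with a median of -0.71 (against 37.5% lower and 32.6% higher of all tested genes). By description, 29 of 34 with the pattern were lower and 2 higher, with a median of -2.19. Of the 77 without it, 32 were lower and 15 higher, with a median of -0.35. Of all tested genes, 36.2% were lower and 31.9% higher by description. The median transcript lengths of members with and without the pattern were 3704 and 3588 bases. Members with at least 12 fingers had a median of -2.34, those with 6 to 11 fingers -1.56 and those with at most 5 fingers -0.68, or -1.44, -1.03 and -0.31 by description. The pattern, finger number and level go together, so these splits are not separate results.

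**Figure D3:**
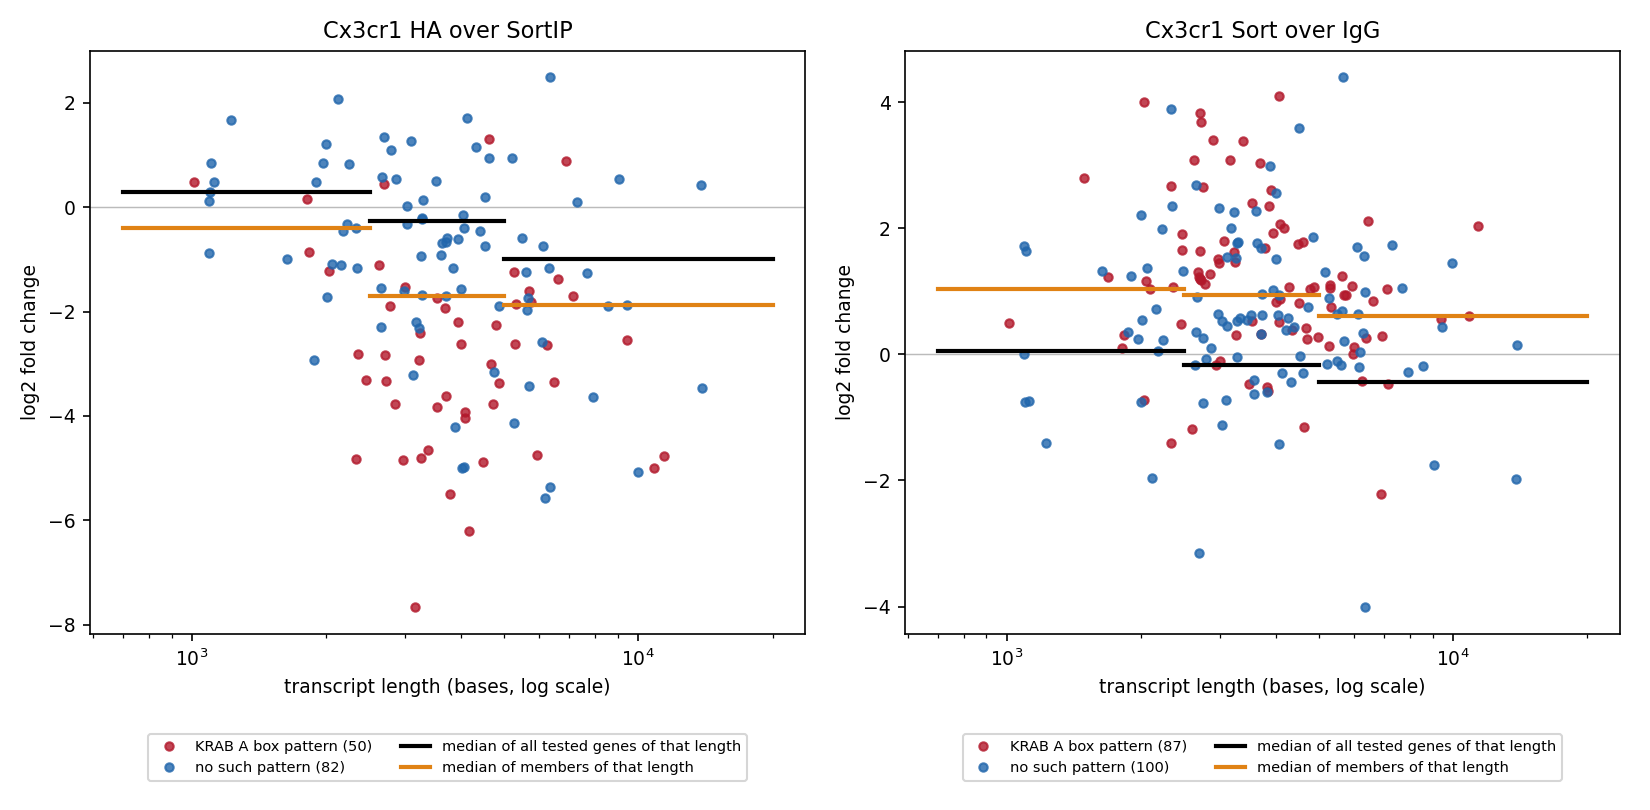
Log2 fold change (y axis) against transcript length in bases (x axis, log scale) for the tested members in Cx3cr1 HA over SortIP (left) and Cx3cr1 Sort over IgG (right), groups by title. Red and blue points are members with and without the KRAB A box pattern, and horizontal lines are medians in 3 length classes over all tested genes (black) and over members (orange). The orange lines lie below the black ones on the left and above them on the right.

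Sorted cells of the Cx3cr1 line were also set against homogenate IgG. Titled Sort is RNA without precipitation and IgG is a control precipitate, and no library held total brain RNA. Cell content and precipitation therefore cannot be told apart in this comparison. Of 187 tested members, 93 were higher in titled Sort (49.7%, against 33.7% of all 11180 tested genes) and 18 were lower (9.63%, against 40.1% of all tested genes), with medians of 0.82 over members and -0.11 over all genes. The choice by level in sorted cells favours this direction: among the 8492 tested genes at the same level minimum, 43.6% were higher and 24.7% lower, with a median of 0.39. By description 105 were higher and 20 lower of 195 (against 32.5% higher and 43% lower of all genes), and with both sorted libraries of each mouse summed 116 were higher and 18 lower of 197 (against 35.5% higher and 41.8% lower of all genes). With the mouse as a block and a length adjustment 141 were higher and 14 lower, in a fit that called 44.8% of all tested genes higher and 35.3% lower and moved their median to 0.31.

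Zfp217 and Zfp691 led the higher members. Zfp217, whose human counterpart is an oncogene of breast cancer, stood at 80.6, 72.0, 58.6 and 57.6 CPM in titled Sort against 3.18, 2.43, 3.59 and 3.91 CPM in IgG, a log2 fold change of 4.40 ± 0.27 (SE, edgeR adjusted p = 8.1e-10). Zfp691 stood at 99.4, 109, 101 and 93.0 CPM in titled Sort against 8.63, 7.29, 7.18 and 4.77 CPM in IgG, a log2 fold change of 3.89 ± 0.24 (SE, edgeR adjusted p = 9.3e-10). Zfp62 was also higher, at 104, 103, 108 and 136 CPM in titled Sort against 28.2, 7.29, 28.3 and 16.9 CPM in IgG, although it was lower in HA than in IgG. Zfp651 and Zfp523 (the counterpart of human ZNF76) led the lower members. Zfp651 stood at 25.4, 13.2, 5.67 and 10.3 CPM in titled Sort against 219, 284, 176 and 229 CPM in IgG, a log2 fold change of -4.01 ± 0.35 (SE, edgeR adjusted p = 3.9e-08). Zfp523 stood at 15.5, 20.3, 15.1 and 13.3 CPM in titled Sort against 136, 230.3, 92.9 and 125 CPM in IgG, a log2 fold change of -3.15 ± 0.34 (SE, edgeR adjusted p = 4.5e-07). In these 4 leading genes (Zfp217, Zfp691, Zfp651 and Zfp523) no library of one group reached the range of the other. By description Zfp217, Zfp691, Zfp62, Zfp651 and Zfp523 were called in the same directions. All 20 microglial genes were higher and all 15 neuronal genes lower in the same comparison, and their part was not tested.

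**Figure D4:**
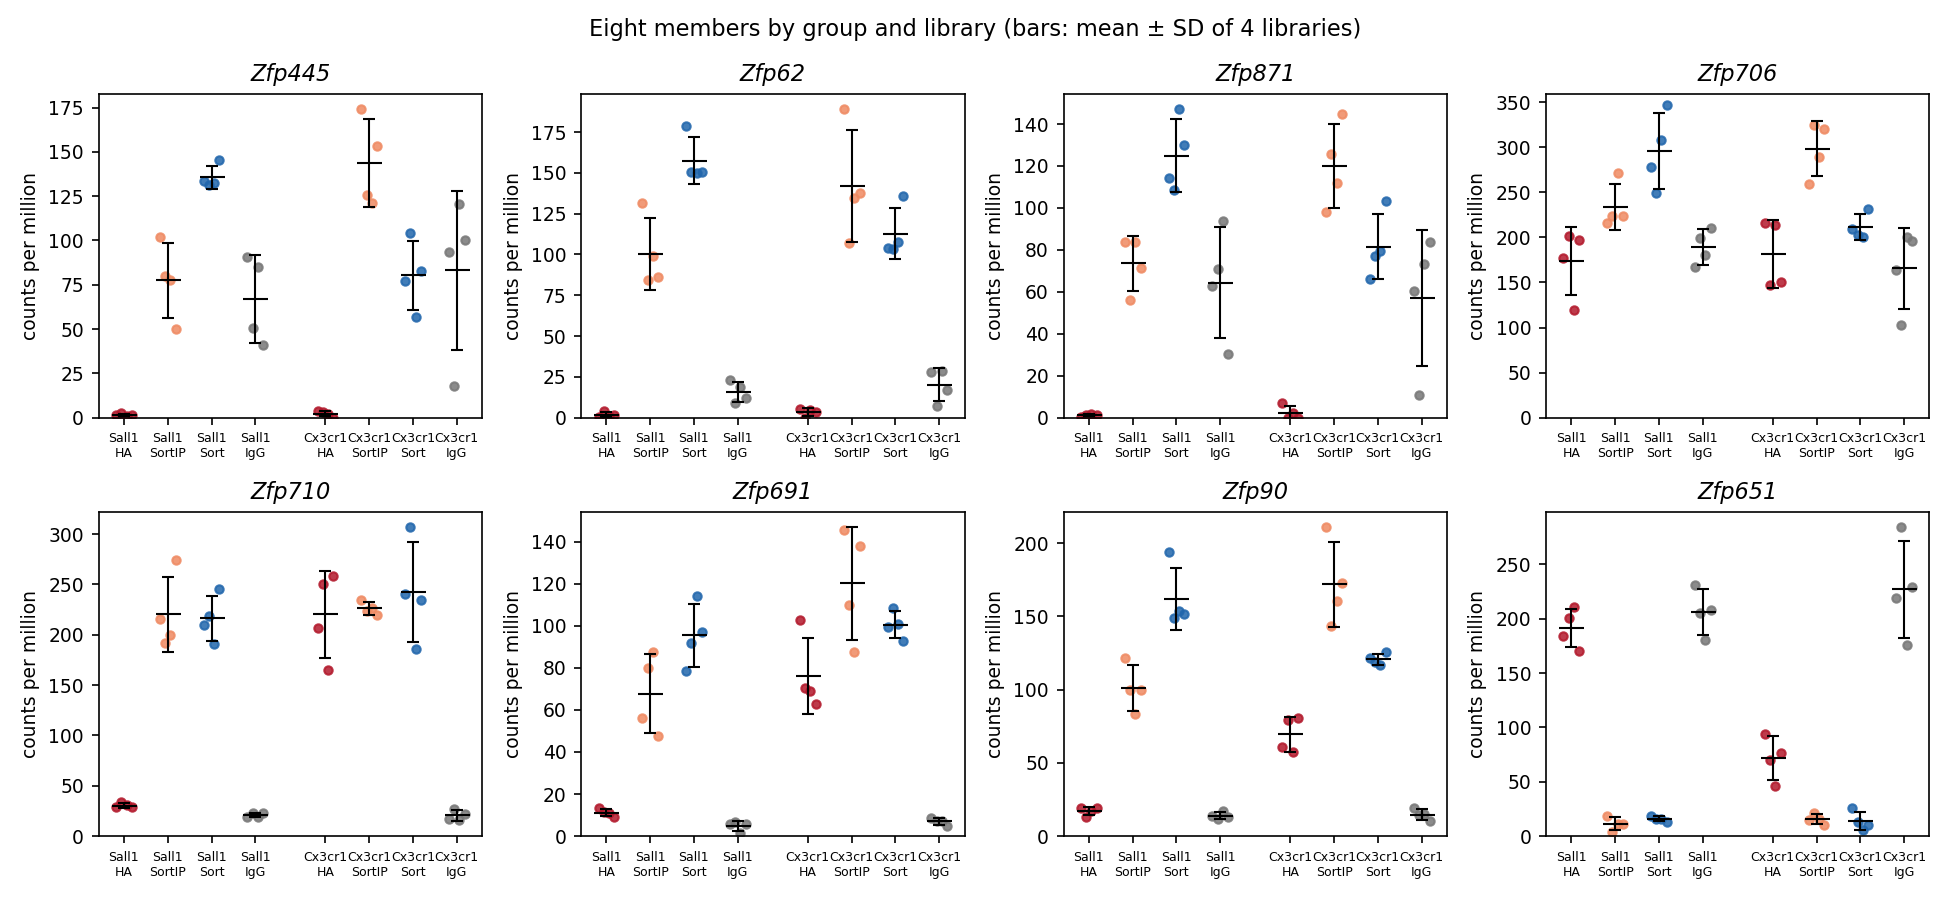
CPM (y axes from 0) of 8 members in each library (points) and group (black marks, mean ± SD of 4 libraries). Zfp445, Zfp62 and Zfp871 are near 0 in the HA libraries of both lines, Zfp710, Zfp691 and Zfp90 are high in Cx3cr1 HA and low in Sall1 HA, and Zfp651 is high in homogenate fractions and low in sorted ones.

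Precipitation from sorted cells changed few members, and the direction depends on which label of the Cx3cr1 libraries is used. By title, 16 of 188 tested members were higher in SortIP than in Sort (8.51%, against 6.35% of all 8704 tested genes) and 6 were lower (3.19%, against 6.46% of all tested genes, or 6.56% higher and 6.59% lower at the same level minimum), and by description these counts are exchanged. Without scaling beyond library size 33 were higher and 4 lower, against 11.4% higher and 3.47% lower of all tested genes. Without 1 library the higher count ran from 3 to 24, with 5, 10 and 3 when titled Sort of mouse 1, 2 or 3 was left out and 8 and 6 when titled SortIP of mouse 1 or 4 was, and the lower count from 2 to 6, with 3 without titled Sort of mouse 4, 2 without titled SortIP of mouse 1 and 3 without that of mouse 4. Zfp69, a modifier of diabetes in mice, stood at 24.5, 21.4, 28.7 and 29.0 CPM in titled SortIP against 5.52, 7.10, 10.4 and 14.8 CPM in titled Sort, a log2 fold change of 1.39 ± 0.29 (SE, edgeR adjusted p = 0.0055). Zfp579 stood at 69.8, 97.8, 80.7 and 85.3 CPM in titled SortIP against 40.9, 51.7, 40.6 and 44.3 CPM in titled Sort, a log2 fold change of 0.77 ± 0.17 (SE, edgeR adjusted p = 0.0075). Zfp207, which codes for the spindle assembly factor BuGZ, stood at 146, 143, 164 and 131 CPM in titled SortIP against 239, 197, 222 and 209.6 CPM in titled Sort, a log2 fold change of -0.69 ± 0.14 (SE, edgeR adjusted p = 0.0043). Zfp703, a transcriptional corepressor, stood at 116, 178, 133 and 153 CPM in titled SortIP against 225, 228, 176 and 232 CPM in titled Sort, a log2 fold change of -0.70 ± 0.15 (SE, edgeR adjusted p = 0.0068), with groups that overlapped, unlike those of the other three.

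In the Sall1 line, where labels do not conflict, the same 4 genes are given as a description. Zfp69 averaged 14.1 ± 6.21 CPM in Sall1 SortIP and 29.0 ± 4.43 CPM in Sall1 Sort, and Zfp579 averaged 45.8 ± 7.17 CPM in Sall1 SortIP and 93.8 ± 10.1 CPM in Sall1 Sort (SD, n = 4 each). Zfp207 averaged 174 ± 5.94 CPM in Sall1 SortIP and 122 ± 14.6 CPM in Sall1 Sort, and Zfp703 averaged 175 ± 29.5 CPM in Sall1 SortIP and 126 ± 17.3 CPM in Sall1 Sort (SD, n = 4 each). In all 4 genes the Sall1 direction was opposite to that of Cx3cr1 by title and the same as that by description. Which label is right was not tested. Over the 183 tested members, 16 were lower in Sall1 SortIP (8.74%, against 5.08% of all tested genes) and 5 were higher (2.73%, against 5.45% of all tested genes, or 5.16% lower and 5.18% higher at the same level minimum). With the mouse as a block 27 were lower, against 7.66% of all tested genes. Without scaling beyond library size 29 were lower, against 9.28% of all tested genes. Leaving out Sall1 SortIP of mouse 9 or Sall1 Sort of mouse 17 gave 8 lower. These counts use the libraries that chose the members and are a description only.

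Members with known roles were followed by role. Among proteins that act on ribosomes, Zfp622, a factor of 60S subunit maturation, averaged 113 ± 13 CPM in Cx3cr1 HA, 62.3 ± 9.39 CPM in titled SortIP and 87.0 ± 9.0 CPM in IgG (SD, n = 4 each), and HA was higher than either by the test. Zfp593, of the same pathway in yeast and human, was higher in Sall1 HA at 40.4 ± 4.06 CPM than in Sall1 IgG at 22.1 ± 6.22 CPM (SD, n = 4 each). Zfp598, the ubiquitin ligase that marks collided ribosomes, averaged 52.0 ± 12.9 CPM in Cx3cr1 HA, against 43.7 ± 7.41 CPM in Cx3cr1 IgG (SD, n = 4 each), a log2 fold change of 0.63 ± 0.26 (SE, edgeR adjusted p = 0.044). Of members that act on RNA or on foreign DNA, Zfp638, which silences unintegrated retroviral DNA through the HUSH complex, averaged 0.454 ± 0.441 CPM in Sall1 HA and 11.5 ± 2.61 CPM in Sall1 IgG (SD, n = 4 each), a log2 fold change of -4.22 that passed the test. Zfp326, of a complex that joins transcription and splicing, averaged 12.9 ± 1.72 CPM in Sall1 HA and 45.1 ± 4.20 CPM in Sall1 IgG (SD, n = 4 each), and also passed the test at -1.41. Zfp106 fell to 90.6 ± 23.8 CPM in Cx3cr1 HA, against 182 ± 32.3 CPM in Cx3cr1 IgG (SD, n = 4 each), and stood at 70.3 ± 20.3 CPM in titled SortIP. With the mouse as a block and a length adjustment it was called in the opposite direction, higher in Cx3cr1 HA than in IgG, and by description it was also higher in HA than in SortIP, at 0.90 (log2).

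Sequence-specific regulators followed no single direction. Zfp281, a regulator of pluripotency genes, averaged 1.34 ± 1.12 CPM in Sall1 HA and 37.7 ± 19.9 CPM in Sall1 IgG, and Zfp148, which binds GC-rich promoters, 12.0 ± 1.90 CPM in Sall1 HA and 78.2 ± 31.4 CPM in Sall1 IgG (SD, n = 4 each). Both were lower in HA by the test, at log2 fold changes of -4.37 for Zfp281 and -2.26 for Zfp148. Zfp592 and Zfp687, partners of the chromatin reader Zmynd8, were higher in Sall1 HA than in Sall1 IgG, at log2 fold changes of 0.93 for Zfp592 and 1.03 for Zfp687. Zfp143, which binds at promoters, averaged 14.3 ± 1.61 CPM in titled Cx3cr1 Sort and 2.94 ± 1.23 CPM in Cx3cr1 IgG (SD, n = 4 each), and Zfp384 60.5 ± 21.8 CPM and 15.4 ± 4.33 CPM in the same groups, both called higher. Zfp410, known as the activator of Chd4, averaged 7.22 ± 3.58 CPM in Cx3cr1 HA, against 26.9 ± 2.97 CPM in titled SortIP (SD, n = 4 each), a log2 fold change of -1.61 that passed the test, while by description Zfp410 was not tested. Zfp809, which silences endogenous retroviruses, averaged 13.2 ± 4.94 CPM in titled Cx3cr1 Sort and 1.83 ± 0.442 CPM in Cx3cr1 IgG (SD, n = 4 each) and was called higher, as it was by description. Zfp932, with the same role, averaged at most 10.4 ± 4.50 CPM in any group, was not tested by title, and by description was higher in Cx3cr1 Sort than in IgG at 1.18 (log2, edgeR adjusted p = 0.043).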

How the data were processed

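RNA was sequenced from 32 libraries, 4 mice in each of 8 groups. The authors deposited raw exon counts per gene, made with bcl2fastq, HISAT 0.1.5 and HOMER on mm9, per the submitters' processing notes; strand setting and treatment of multiply mapped reads are not given in the sources used here. Counts per 1000000 (CPM) were computed over the counts of all 24411 genes of a library. Each comparison was fitted on its own groups with edgeR 4.0.16 in R 4.3.3 (robust quasi-likelihood test, TMM scaling, low-count filter with a minimum count of 10) and called at an adjusted p under 0.05 (Benjamini-Hochberg over all genes tested), and the SE of a log2 fold change is its size divided by the square root of the test's F. DESeq2 1.42.0, median-ratio scaling, no scaling, no low-count filter, 1 fit over all groups, leaving out each library, a mouse block, a transcript length adjustment (a spline of each library's log2 CPM deviations on transcript length, added to the offsets) and groups by description were alternatives. The tests were tested on simulated data.

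The members, gene lists and motifs were chosen with earlier results of these data known, and other words had been looked at before the 10 motifs were kept. Genes named library by library are the 6 highest members in Sall1 Sort and, per comparison, the 2 called members of smallest adjusted p in each direction; role genes come from a list. The same number within a line marks 1 mouse, per the series design. Deviations of 48 same-mouse library pairs from their group means had correlations of -0.141 to 0.291 (median 0.0850, against -0.0244 between different mice). Pairs of libraries within each group all differed by more than counting noise, with chi-square over its degrees of freedom from 1.58 to 22.5. Floors cover counting error only, since reads carry no molecular identifiers in the sources used here. Finger counts come from translated GENCODE M21 coding sequences matched by symbol for all 198 members, and promoters from RefSeq for 165.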

Additional observations from a re-analysis of the deposited data

Results flagged for a closer look

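The fold change of HA over IgG differed between lines for 17 members by the interaction test (Sall1 minus Cx3cr1, log2, edgeR adjusted p under 0.05). Beyond Zfp710 at -2.92, Zfp691 at -2.48, Zfp651 at 1.50 and Zfp790 at 5.91, the difference was -3.70 for Zfp157, -2.71 for Zfp652, -2.54 for Zfp217, -2.31 for Zfp764 and -1.94 for Zfp90. It was -1.80 for Zfp866, -1.56 for Zfp282, -1.54 for Zfp324, -1.18 for Zfp839, -1.17 for Zfp592, -1.0 for Zfp703, -0.88 for Zfp740 and -0.80 for Zfp513.

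The search covered 168 groups of 4 libraries, for the named members and for the share of counts held by all members. A library far from the others was found in 13 groups, and chance flags about 1 group in 20. In the Sall1 Sort group these were Zfp90 at 194 CPM and Zfp62 at 179 CPM in mouse 17, Zfp207 at 144 CPM in mouse 21 and Zfp445 at 145 CPM in mouse 9, all above the other three. In Sall1 SortIP, Zfp706 was high at 272 CPM in mouse 7 and Zfp768 at 53.3 CPM in mouse 9. In Sall1 HA, Zfp664 was high at 65.0 CPM in mouse 17 and Zfp207 at 76.6 CPM in mouse 21. In titled Cx3cr1 Sort, Zfp62 was high at 136 CPM in mouse 4, Zfp524 was high at 47.5 CPM in mouse 1 and Zfp703 was low at 176 CPM in mouse 3. Zfp69 was at 0.449 CPM in 1 Cx3cr1 IgG library and at 0.988 CPM in 1 Sall1 IgG library, with no count in the others of each group. The chance rate of 1 in 20 is for continuous values and does not cover these Zfp69 groups.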

How the results depend on the processing

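Leaving out 1 library at a time gave these ranges of called members: Cx3cr1 HA over IgG 19 to 32 higher and 13 to 36 lower, Sall1 HA over IgG 30 to 39 and 57 to 71, the line difference 1 to 4 and 10 to 17, Sall1 HA over Cx3cr1 HA 2 to 4 and 13 to 24, Cx3cr1 HA over SortIP 16 to 18 and 79 to 106, Cx3cr1 SortIP over Sort 3 to 24 and 2 to 6, Cx3cr1 Sort over IgG 75 to 100 and 16 to 20, and Sall1 SortIP over Sort 2 to 4 and 8 to 14. For these fits the shares of all tested genes are not given, so the ranges are a description only. The members' share of counts then ran from 0.364% to 0.378% in Cx3cr1 HA, 0.774% to 0.815% in SortIP, 0.624% to 0.644% in Sort and 0.443% to 0.466% in IgG, and from 0.325% to 0.330% in Sall1 HA, 0.582% to 0.601% in SortIP, 0.766% to 0.779% in Sort and 0.441% to 0.450% in IgG. In the counts that follow, the share of all tested genes called in the same fit stands in brackets. Without scaling beyond library size, Cx3cr1 HA over IgG gave 15 higher (21.2%) and 38 lower (46.9%), and Sall1 HA over IgG 16 higher (25.0%). Sall1 HA over Cx3cr1 HA gave 6 higher (33.5%) and Cx3cr1 SortIP over Sort 33 higher (11.4%). Sall1 SortIP over Sort gave 2 higher (2.55%) and 29 lower (9.28%). Without the low-count filter, Cx3cr1 HA over IgG gave 49 lower (25.9%) and Sall1 HA over IgG 92 lower (28.0%). Sall1 HA over Cx3cr1 HA gave 5 higher (20.5%) and 26 lower (15.1%), and Cx3cr1 HA over SortIP 138 lower (27.1%). More members were tested without the filter. With all 8 groups in 1 fit, lower calls were 71 (43.8%) in Cx3cr1 HA over IgG, 103 (37.4%) in Sall1 HA over IgG and 140 (33.2%) in Cx3cr1 HA over SortIP. Higher calls were 7 (25.0%) in the line difference and 12 (30.4%) in Sall1 HA over Cx3cr1 HA. Cx3cr1 SortIP over Sort gave 7 higher (2.61%) and 2 lower (1.81%), and Sall1 SortIP over Sort 2 higher (2.28%) and 7 lower (2.15%). The line difference gave 1 higher with median-ratio size factors, 1 with DESeq2 and 0 at a level minimum of 20 (13 lower at that minimum), and Sall1 SortIP over Sort gave 3 higher with DESeq2.

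At a level minimum of 20 the members' share was 0.319% in Cx3cr1 HA, 0.684% in SortIP, 0.541% in Sort and 0.363% in IgG, and 0.265% in Sall1 HA, 0.503% in SortIP, 0.668% in Sort and 0.356% in IgG. With TMM scaling it was 0.392% in Cx3cr1 HA and 0.439% in IgG, and 0.388% in Sall1 HA, 0.726% in Sall1 Sort and 0.412% in Sall1 IgG, with HA and IgG overlapping in both lines. With genes chosen by Cx3cr1 HA level, lower calls were 8 of 83 tested in Cx3cr1 HA over IgG (against 36% of all tested genes). In Cx3cr1 HA over SortIP they were 25 of 70 (against 37.5%). By description, the share was 0.794% in Cx3cr1 Sort and 0.635% in SortIP, Cx3cr1 SortIP over Sort gave 6 higher and 16 lower, and the log2 fold changes turned to -1.39 for Zfp69, -0.77 for Zfp579, 0.69 for Zfp207 and 0.70 for Zfp703; this exchange of labels sets the turn. With the mouse as a replicate block Sall1 SortIP over Sort gave 27 lower, and no other count of calls moved over 1.5 times. With the block and a length adjustment Cx3cr1 Sort over IgG gave 141 higher. Zfp706, called lower in Cx3cr1 HA than in titled SortIP, turned to 0.012 (log2) in that fit. By description Zfp706 was at -0.07 (log2) and did not pass the test (edgeR adjusted p = 0.73). The fit with block and length adjustment kept 40 of 53 called members in Cx3cr1 HA over IgG, with Zfp704 and Zfp106 called the opposite way, and 62 of 94 in Sall1 HA over IgG, with Zfp704 called the opposite way. No paired fit was possible for Sall1 HA over Cx3cr1 HA, which come from different mice. Where no construction is named, the cause was not tested. Of 316 fits of named genes that left out 1 library, 302 kept direction and call, 14 lost the call and 0 turned. Low depth limits the Cx3cr1 HA values, where 1 count was worth up to 3.49 CPM.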

Other observations

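The partners of KRAB zinc finger proteins were listed apart. Trim28, the corepressor that KRAB domains bind, was higher in HA than in IgG in both lines, at log2 fold changes of 0.95 in Cx3cr1 and 0.64 in Sall1 (edgeR). Setdb1, the histone methyltransferase that Trim28 recruits, was lower in both, at -0.84 in Cx3cr1 and -1.57 in Sall1, and was 1.52 higher on the log2 scale in titled Cx3cr1 Sort than in IgG. Over the corepressor and heterochromatin list, 1 of 11 tested genes was higher and 7 were lower in Sall1 HA than in IgG (against 35.2% higher and 36.1% lower of all tested genes), and 2 of 9 were higher and 4 lower in Cx3cr1 (against 28.6% and 36%). Of the HUSH complex, which silences transposable elements, 7 symbols were listed and 4 were in the count table. Lower in HA than in IgG were 4 of 4 tested genes in Sall1 and 1 of 3 in Cx3cr1 (against 36.1% and 36% of all tested genes). In Cx3cr1 HA 3 of 3 were lower than in titled SortIP (against 37.5% of all tested genes), with Mphosph8 at -3.34 and Fam208a at -5.20. That last count is by title only.

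C2H2 factors with their own names were lower in Cx3cr1 HA than in titled SortIP for 18 of 25 tested genes and higher for 4, with a median log2 fold change of -1.58, and Zbtb, Zscan and Zkscan genes for 14 of 23 and 2, with a median of -1.11 (against 37.5% lower and 32.6% higher of all tested genes). In titled Cx3cr1 Sort against IgG, 17 of 26 own-name factors were higher and 3 lower (against 33.7% higher and 40.1% lower of all tested genes). The numbered Zfp genes under the level minimum were lower in titled Cx3cr1 Sort than in IgG for 23 of 37 tested and higher for 2, a direction that the choice by level favours. All counts in this paragraph are by title only.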
